A study of Homo sapiens with 24 samples.

Results

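Integrin subunits were followed as a set of 10 genes in RNA-seq of the T/C-28a2 chondrocyte line, a human cell line made by immortalising costal chondrocytes. The members were 4 collagen-binding alpha subunits (ITGA1, ITGA2, ITGA10 and ITGA11), the laminin-binding alpha subunits ITGA3 and ITGA6, the alpha subunits ITGA5 and ITGAV, which bind ligands through an RGD motif, and the beta subunits ITGB1 and ITGB5. They are 10 of the 62703 gene identifiers counted, and each symbol matched 1 identifier. ITGA11 was chosen by the p-values of 2 interactions measured in these libraries, those of sorbitol with genotype, where it ranked 1 of 16600 tested genes, and of sorbitol with transfection, where it ranked 2. Its values are therefore a description and carry no test. The next genes in those orders were KLF9 after it in the first (log2 difference -2.08) and THBD before it in the second (-4.79), against -2.06 and -3.23 for ITGA11.

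The 24 libraries formed 6 groups of 4. WT Control cells were untransfected and kept in isotonic medium, and WT Sorbitol cells received 100 mM sorbitol for 7 days, which raises the osmolarity outside the cell. In WNK2 transfection and WNK2 transfection +Sorbitol, cells of WT genotype took up a plasmid encoding the kinase WNK2 for 48 h before the same isotonic or sorbitol medium. WNK2 knockout Control and WNK2 knockout Sorbitol were derivatives of the line in which CRISPR/Cas9 had removed exon 2 of WNK2. The knockout cells came from 1 selected clone, so genotype and clone cannot be told apart, and no group that received an empty plasmid was analysed here.

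Total counts per library ran from 14153002 to 25664619. WNK2 itself went against the labels of the isotonic pair: it had 1217 to 2568 counts in the libraries labelled WT Control and 163 to 290 in those labelled WNK2 transfection. The sorbitol pair ran as labelled, with 266 to 314 counts in WT Sorbitol and 2237 to 3739 in WNK2 transfection +Sorbitol. The knockout libraries had 322 to 503, and a deletion of 1 exon leaves the rest of the transcript countable. Groups are named below as labelled, and the comparisons that use WT Control or WNK2 transfection were also computed with those labels exchanged. Of 10 chondrocyte markers, COL11A2 and HAPLN1 alone reached 10 counts in every library and SOX9 was listed at 0 in all of them. The summed level of the 10 lay between 70.2 and 156.8 CPM (counts scaled to the library total) in the groups of WT genotype and between 22.8 and 28.5 in the knockout groups. The sum hides opposite changes: with sorbitol after transfection, where 48% of all genes were called, 2 of the 8 tested markers rose (HAPLN1, a matrix link protein, by 1.34) and 6 fell (COL2A1 at -2.88, COMP at -2.61 and ACAN at -2.36 among them). With the isotonic labels exchanged, 1 rose and 4 fell, where 39.2% of all genes were called. HAPLN1 then stood at 0.54, COL2A1 at -1.76, COMP at -2.06 and ACAN at -0.98. In WNK2 transfection against WT Control, where 12.5% of all genes were called, ACAN (1.379) and COL2A1 (1.12) were higher and HAPLN1 (-0.81) lower. The part of the markers in the differences between groups was not tested. Of 5 endothelial markers, CDH5 and PECAM1 reached 10 counts in every library, and the summed level was 99.3 to 106 CPM in WNK2 transfection +Sorbitol against 24.4 to 67.2 elsewhere. This sum hides opposite changes too. It was 24.4 to 29.1 CPM in WNK2 knockout Control and 36.2 to 42.5 in WT Control. Of the 4 markers tested, however, 3 were called higher and 1 lower in that comparison, where 42.1% of all genes were called. The 5 epithelial markers summed to at most 5.84 CPM, and the 5 haematopoietic ones, with CD68 listed at 0, to at most 21.98. Their part in the results was not tested.

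Integrins are cell surface receptors made of 1 alpha and 1 beta subunit, and the pair decides which matrix protein the cell holds. ITGB1 is the shared partner of all 4 collagen-binding alpha subunits and of ITGA3, ITGA5 and ITGA6, whereas ITGAV pairs with several beta subunits, ITGB5 among them. In cartilage the collagen receptors ITGA1 and ITGA10 are the ones best known on chondrocytes, ITGA2 and ITGA11 read fibrillar collagen, and ITGA5 with ITGB1 is the classical fibronectin receptor.

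The sequences just upstream of the genes of the 4 collagen-binding subunits are shown first, and their part in the sorbitol responses was not tested. They come from RefSeq (GRCh38.p14), run 5′ to 3′ on the strand of the gene, and end before the first transcript start in either RefSeq or GENCODE 29. ITGA1 is read from chr5:52787666-52787895 on the plus strand, ITGA2 from chr5:52989102-52989325 on the plus strand, ITGA10 from chr1:145910190-145910300 on the minus strand and ITGA11 from chr15:68432164-68432413 on the minus strand. Capitals mark GC boxes, the only one of the 5 motifs searched that lies in these stretches.
ITGA1: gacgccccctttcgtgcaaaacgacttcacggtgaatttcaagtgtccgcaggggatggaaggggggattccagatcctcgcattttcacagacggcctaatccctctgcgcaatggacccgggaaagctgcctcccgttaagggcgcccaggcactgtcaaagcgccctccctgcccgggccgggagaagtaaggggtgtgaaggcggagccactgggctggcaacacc
ITGA2: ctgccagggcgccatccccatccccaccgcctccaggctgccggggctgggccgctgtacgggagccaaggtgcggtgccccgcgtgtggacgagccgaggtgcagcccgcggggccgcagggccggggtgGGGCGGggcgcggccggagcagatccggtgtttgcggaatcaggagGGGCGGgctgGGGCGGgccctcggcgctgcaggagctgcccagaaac
ITGA10: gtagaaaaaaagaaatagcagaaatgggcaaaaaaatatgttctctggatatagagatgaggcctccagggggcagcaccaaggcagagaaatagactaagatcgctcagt
ITGA11: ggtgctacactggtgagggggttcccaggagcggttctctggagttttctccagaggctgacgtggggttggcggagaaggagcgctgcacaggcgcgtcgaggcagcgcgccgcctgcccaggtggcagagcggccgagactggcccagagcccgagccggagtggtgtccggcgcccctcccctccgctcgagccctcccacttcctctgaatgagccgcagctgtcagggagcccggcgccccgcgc

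The motifs were sought on both strands in the 250 bases before each RefSeq start: the tonicity element core TGGAAA, the CAGA box CAGACA, the TEAD site GGAATG, the AP-1 site TGACTCA and the GC box GGGCGG. The tonicity core and the TEAD site can overlap in part. The GC box was found 4 times before ITGA2, 3 of them in the stretch printed, and it lies in 42.6% of the 35116 promoters of that length. ITGA10 had 1 TEAD site, starting 91 bases before its RefSeq start and inside the longer GENCODE transcript, a motif found in 11.9% of promoters. None of the 5 was found before ITGA1 or ITGA11, while TGGAAA was present in 18% of all promoters, CAGACA in 13.6% and TGACTCA in 4.2%. G and C made up 62% of the bases before ITGA1, 76.4% before ITGA2, 48.4% before ITGA10 and 71.2% before ITGA11, against a median of 58%. These matches describe letters and say nothing of binding.

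ITGA11 (ENSG00000137809, chr15:68296533-68432162, minus strand, GRCh38) encodes the alpha subunit that reads fibrillar collagen on mesenchymal cells. As labelled, it changed direction with the background in which sorbitol was given. Levels are in CPM on the effective library size. WT Control libraries had 87.4, 71.3, 76.7 and 78.1, and WT Sorbitol libraries 181, 182, 206 and 189. WNK2 transfection libraries had 203, 188, 176 and 202, and WNK2 transfection +Sorbitol libraries 48.6, 49.4, 49.0 and 50.9. WNK2 knockout Control libraries had 42.5, 48.1, 46.7 and 42.5, and WNK2 knockout Sorbitol libraries 25.1, 27.1, 23.8 and 28.2. WT Sorbitol and WNK2 transfection overlapped and were the highest, WT Control lay between, WNK2 transfection +Sorbitol and WNK2 knockout Control were low, and WNK2 knockout Sorbitol was lowest.

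Sorbitol went with a log2 fold change of 1.27 (SE 0.08) in cells labelled WT, -1.96 (SE 0.08) in transfected cells and -0.79 (SE 0.08) in knockout cells. The libraries of the 2 groups did not overlap in any of these 3 comparisons, as was so for 25.7%, 34.4% and 28.4% of all genes. Under isotonic medium the knockout libraries were lower than WT Control (log2 difference -0.80, SE 0.08), and under sorbitol they were lower than WT Sorbitol (-2.86, SE 0.09), at 0.138 of its level. These values depend on the library labels. With the labels WT Control and WNK2 transfection exchanged, sorbitol in the WT genotype went with a log2 difference of -0.02 (SE 0.08) in place of 1.27, sorbitol after transfection with -0.66 (SE 0.08) in place of -1.96, and knockout against WT Control with -2.10 (SE 0.08) in place of -0.80. The interaction with genotype was then -0.77 (SE 0.11) in place of -2.06, and that with transfection -0.64 (SE 0.11) in place of -3.23. The decline with sorbitol in knockout cells and the low level of WNK2 knockout Sorbitol against WT Sorbitol use neither of those labels. The spread of ITGA11 within groups was 0.09 on the log2 scale, the smallest among the 9 measured members. Choice by a small interaction p-value favours a gene of small spread, so the spread and the lack of overlap are a description only.

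**Figure D1:**
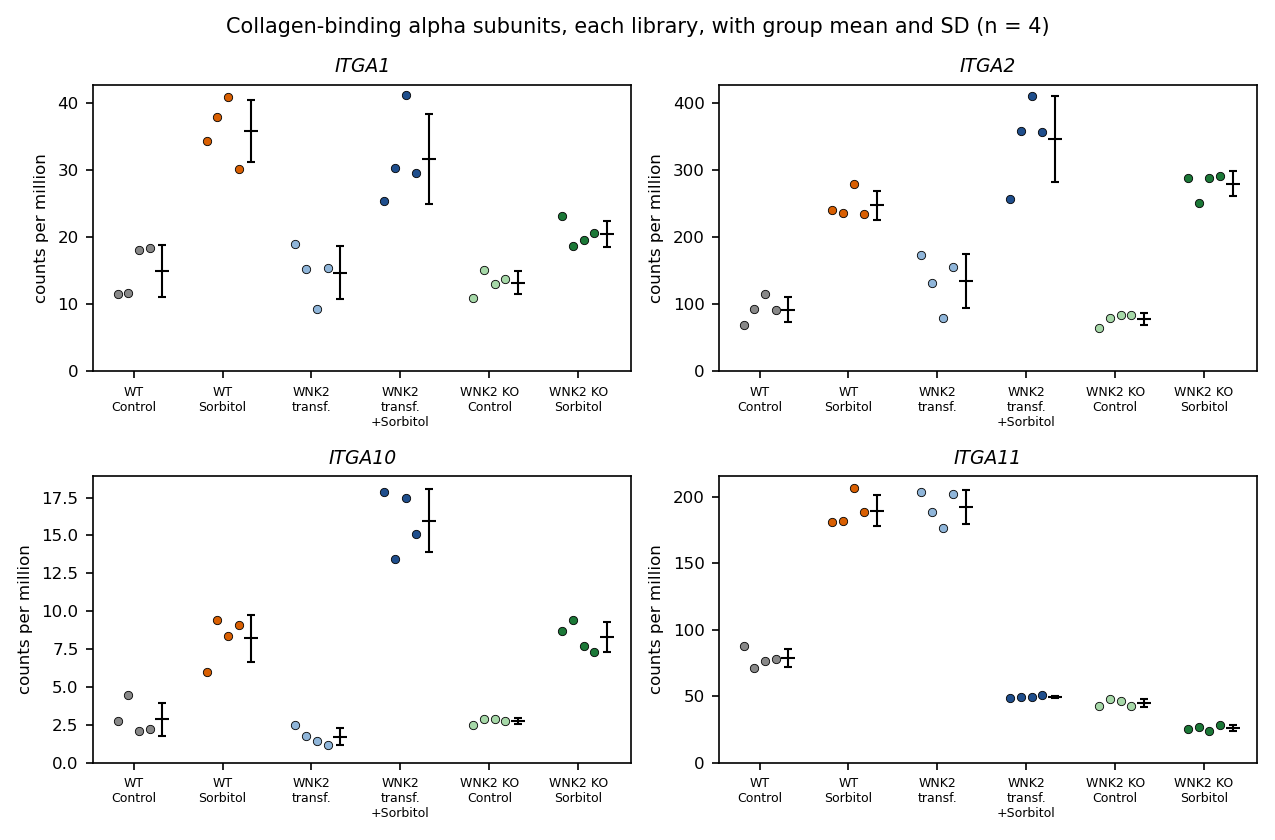
CPM of the 4 collagen-binding alpha subunits in each of the 24 libraries (points, by replicate from left to right) with the group mean and SD (bar, n = 4); KO is knockout and transf. is transfection. ITGA1, ITGA2 and ITGA10 were higher under sorbitol in each of the 3 backgrounds, while ITGA11 was higher under sorbitol in the libraries labelled WT and lower in the other two backgrounds.

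ITGA2, ITGA1 and ITGA10 rose with sorbitol in cells labelled WT, in transfected cells and in knockout cells, and in each of these 9 comparisons every sorbitol library lay above every isotonic one. Tests are edgeR quasi-likelihood tests with Benjamini-Hochberg adjustment over all 16600 genes, and a gene is called where the adjusted p is under 0.05. In the WT libraries 4 of the 8 members tested were called, all higher (ITGA1, ITGA2, ITGA3 and ITGA10), where 24.1% of all genes were called (11.4% higher and 12.7% lower) and 25.7% did not overlap. In transfected cells 4 rose and ITGB5 fell, against a background of 48% called (24.3% higher and 23.7% lower) and 34.4% not overlapping. In knockout cells the same 4 genes as in transfected cells (ITGA1, ITGA2, ITGA6 and ITGA10) rose and ITGB5 fell, against 14.9% called (8.25% higher and 6.64% lower) and 28.4% not overlapping. The median log2 fold change of the 8 members was 0.53, 0.56 and 0.40 in these 3 comparisons, beside 0.035, 0.0064 and 0.0047 over all genes. The count in knockout cells was 3, without ITGA1 and ITGA6, when WNK2 knockout Control replicate 1 (adjusted p = 0.0767 and 0.122), its replicate 3 (0.0517 and 0.108) or WNK2 knockout Sorbitol replicate 1 (0.0740 and 0.0929) was left out.

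ITGA2 (ENSG00000164171, chr5:52989326-53094779), the alpha subunit of the receptor first found on platelets, was the most abundant collagen-binding subunit per length in 5 of the 6 group means. It had 68.2, 93.0, 115 and 90.8 CPM in WT Control and 240.1, 236, 280 and 234 in WT Sorbitol, a log2 fold change of 1.43 (SE 0.18, adjusted p = 3.00e-06). In WNK2 transfection it had 173, 131, 79.2 and 155, and in WNK2 transfection +Sorbitol 257, 359, 410.03 and 357 (1.36, SE 0.18, adjusted p = 7.69e-07). In WNK2 knockout Control it had 64.4, 79.5, 84.1 and 83.7, and in WNK2 knockout Sorbitol 288, 251, 287 and 290.3 (1.84, SE 0.18, adjusted p = 4.74e-08). The rise was thus more than the spread of the libraries in each background. The interaction of sorbitol with genotype was 0.41 (SE 0.25, adjusted p = 0.331) and that with transfection -0.07 (SE 0.25, adjusted p = 0.854), and neither passed. With the isotonic labels exchanged they were 0.96 (SE 0.25, adjusted p = 0.0273) and 1.03 (SE 0.25, adjusted p = 0.0130), and both passed.

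ITGA1 (ENSG00000213949, chr5:52787896-52959210), the neighbour of ITGA2 on chromosome 5 and a receptor that prefers network collagen, had a mean of 1.18 CPM per kb over all libraries, beside 1.05 for ITGA10 and 1.77 for ITGA6. It had 11.6, 11.6, 18.1 and 18.4 CPM in WT Control and 34.4, 38.0, 40.9 and 30.2 in WT Sorbitol (log2 fold change 1.26, SE 0.19, adjusted p = 2.89e-05). WNK2 transfection had 19.0, 15.2, 9.31 and 15.4, and WNK2 transfection +Sorbitol 25.4, 30.3, 41.2 and 29.7 (1.11, SE 0.19, adjusted p = 2.98e-05). WNK2 knockout Control had 10.99, 15.1, 13.0 and 13.7, and WNK2 knockout Sorbitol 23.2, 18.7, 19.5 and 20.7 (0.64, SE 0.19, adjusted p = 0.0198). The knockout cells ended lower under sorbitol: WNK2 knockout Sorbitol was below WT Sorbitol (log2 difference -0.81, SE 0.18, adjusted p = 0.000755), with no overlap. The difference between the 2 sorbitol responses was -0.63 (SE 0.26, adjusted p = 0.142) and did not pass.

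ITGA10 (ENSG00000143127, chr1:145891208-145910189), the collagen receptor most typical of chondrocytes, had 19 to 304 counts per library and rose most in transfected cells. It had 2.76, 4.45, 2.06 and 2.24 CPM in WT Control and 5.99, 9.43, 8.34 and 9.12 in WT Sorbitol (1.51, SE 0.21, adjusted p = 1.49e-05). WNK2 transfection had 2.51, 1.78, 1.41 and 1.19 CPM, the lowest of the 6 groups, and WNK2 transfection +Sorbitol 17.9, 13.4, 17.5 and 15.1, the highest (3.21, SE 0.22, adjusted p = 1.37e-11). WNK2 knockout Control had 2.48, 2.88, 2.86 and 2.77, and WNK2 knockout Sorbitol 8.70, 9.44, 7.68 and 7.33 (1.59, SE 0.21, adjusted p = 4.22e-06). Sorbitol raised ITGA10 by 1.70 (SE 0.31, adjusted p = 0.000115) more on the log2 scale in transfected than in WT libraries. With the isotonic labels exchanged that difference was 0.21 (SE 0.31, adjusted p = 0.772), so it rests on which isotonic group is the control. The genotype interaction was 0.08 (SE 0.30, adjusted p = 0.904).

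**Figure D2:**
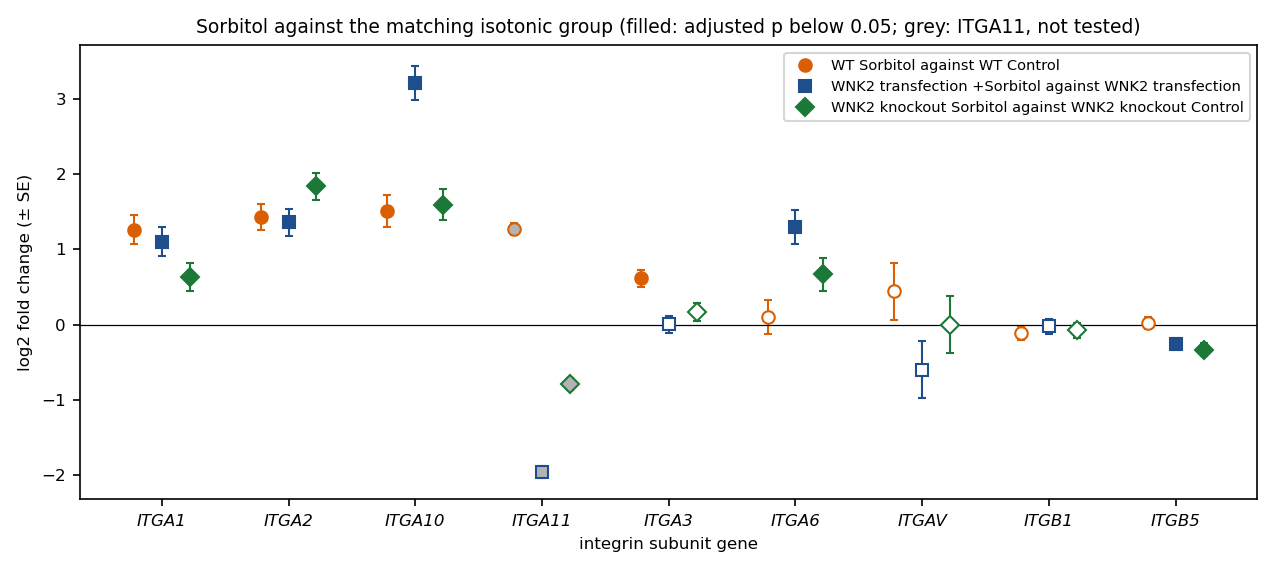
Log2 fold change (vertical axis, ± SE) of sorbitol against the matching isotonic group for 9 integrin subunit genes, in cells labelled WT (circles), WNK2 transfection (squares) and WNK2 knockout (diamonds), 4 libraries a group. Filled symbols passed the test, open ones did not, and grey ones belong to ITGA11, which was not tested: ITGA1, ITGA2 and ITGA10 lie above 0 in all 3 backgrounds and ITGA11 lies above 0 in 1 of them, at 1.27, and at -1.96 and -0.79 in the others.

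Per exon length, the summed level of the 4 collagen-binding subunits was 20.1 ± 2.13 CPM per kb (SD, n = 4) in WT Control, 52.0 ± 3.94 in WT Sorbitol, 35.8 ± 6.57 in WNK2 transfection, 52.5 ± 8.35 in WNK2 transfection +Sorbitol, 15.1 ± 1.41 in WNK2 knockout Control and 40.1 ± 2.25 in WNK2 knockout Sorbitol. The make-up of that sum differed between groups. ITGA11 held 36.4% ± 6.34 of it in WT Control and 33.6% ± 0.811 in WT Sorbitol, 50.4% ± 6.82 in WNK2 transfection and 8.85% ± 1.46 in WNK2 transfection +Sorbitol, and 27.4% ± 2.11 in WNK2 knockout Control and 5.996% ± 0.639 in WNK2 knockout Sorbitol. ITGA2 held the rest almost alone, from 46.7% ± 6.63 in WNK2 transfection to 88.0% ± 1.12 in WNK2 knockout Sorbitol. ITGA1 stayed at group means of 2.19% to 4.69% and ITGA10 at 0.765% to 4.95%. The mean total was thus higher with sorbitol in every background. The libraries of the transfected pair overlapped, though, with up to 42.0 CPM per kb in WNK2 transfection and from 41.2 in WNK2 transfection +Sorbitol. The ITGA11 share in WT Sorbitol was close to that in WT Control, and the shares in the other backgrounds were lower than in their controls. Set against the libraries labelled WNK2 transfection, the WT Sorbitol share was lower as well. These are shares of mRNA, since protein was not measured, and in bulk RNA fewer cells with a transcript and less transcript per cell cannot be told apart.

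**Figure D3:**
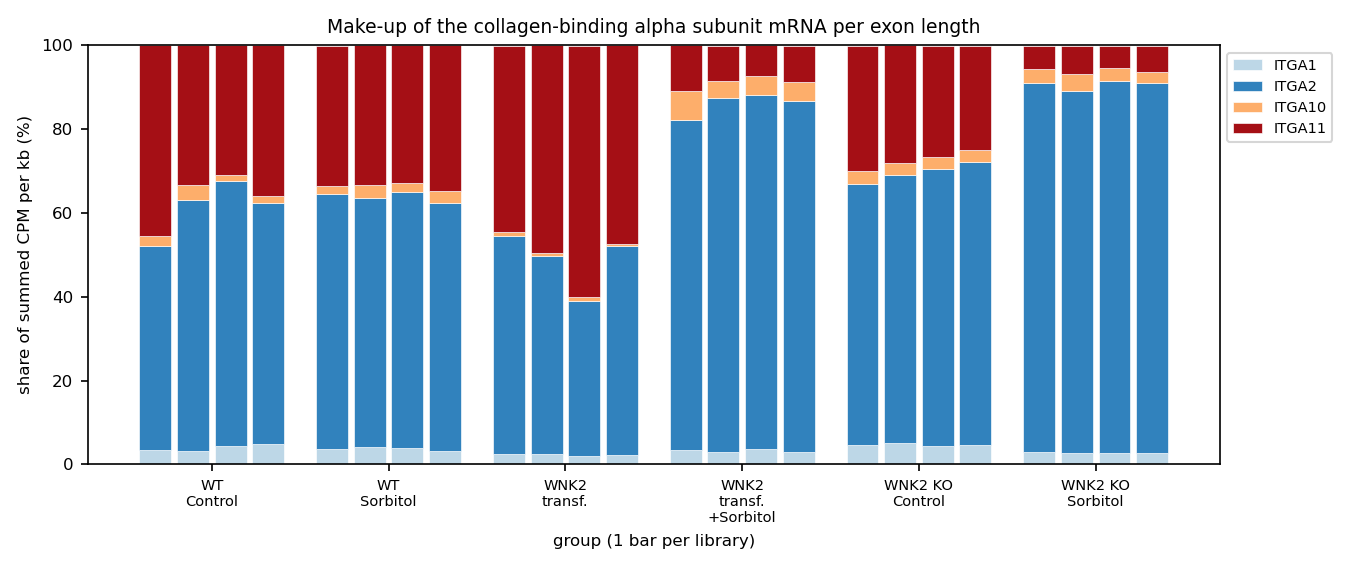
Share (%) of each collagen-binding alpha subunit in their summed CPM per kb of exon, 1 bar per library and 4 per group. The ITGA11 share runs from 30.8% to 60.2% across the libraries labelled WT Control, WT Sorbitol and WNK2 transfection, from 24.99% to 29.98% in WNK2 knockout Control, and from 5.38% to 10.9% in the other two sorbitol groups.

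The laminin-binding subunits ITGA3 and ITGA6, which anchor cells to basement membrane and pericellular laminin, did not move together. ITGA3 (ENSG00000005884, chr17:50055968-50090481) was the most abundant alpha subunit per length, with a mean of 113 CPM per kb over all libraries, near the 108 of ITGB1. It had 946, 691, 704 and 962 CPM in WT Control and 1243, 1249, 1300 and 1271 in WT Sorbitol (log2 fold change 0.62, SE 0.12, adjusted p = 0.000458). It had 951 to 1103 in WNK2 transfection and 791 to 1268 in WNK2 transfection +Sorbitol (0.01, SE 0.12, adjusted p = 0.973), and 1077 to 1192 and 1147 to 1454 in the isotonic and sorbitol knockout groups (0.17, SE 0.12, adjusted p = 0.383). WT Control was thus the low group, and WT Sorbitol stood above it without overlap. ITGA3 was also the one member called in WNK2 knockout Control against WT Control (0.48, SE 0.12, adjusted p = 0.00166), where 42.1% of all genes were called (20.7% higher and 21.5% lower) and 36.9% did not overlap. With the isotonic labels exchanged, sorbitol after transfection passed for ITGA3 (0.34, SE 0.12, adjusted p = 0.0250), but neither the rise with sorbitol (0.29, SE 0.12, adjusted p = 0.104) nor the knockout difference (0.15, SE 0.12, adjusted p = 0.293) passed. The interaction with transfection was -0.61 (SE 0.17, adjusted p = 0.00555), and 0.05 (SE 0.16, adjusted p = 0.909) with the labels exchanged.

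ITGA6 (ENSG00000091409, chr2:172427354-172506282), the laminin receptor also used as a stem cell marker, rose with sorbitol in transfected and in knockout cells. It had 6.57, 7.48, 12.4 and 10.1 CPM in WT Control and 9.96, 10.6, 10.2 and 8.45 in WT Sorbitol, which overlapped (0.10, SE 0.23, adjusted p = 0.787). It had 7.86, 6.16, 4.10 and 8.51 in WNK2 transfection and 12.3, 13.2, 25.1 and 14.7 in WNK2 transfection +Sorbitol (1.30, SE 0.23, adjusted p = 4.25e-05). It had 8.56, 12.3, 9.29 and 12.3 in WNK2 knockout Control and 17.998, 16.4, 16.5 and 16.6 in WNK2 knockout Sorbitol (0.67, SE 0.22, adjusted p = 0.0365). The call in the knockout was also lost without WNK2 knockout Sorbitol replicate 2, 3 or 4 (adjusted p = 0.0578, 0.0680 and 0.0723). Both of those sorbitol groups lay wholly above WT Sorbitol, by 0.74 (SE 0.22, adjusted p = 0.0123) after transfection and 0.79 (SE 0.22, adjusted p = 0.00458) in the knockout. The difference of the sorbitol response with transfection was 1.20 (SE 0.32, adjusted p = 0.00485), and 0.28 (SE 0.32, adjusted p = 0.704) with the isotonic labels exchanged.

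Of the RGD-binding alpha subunits, ITGA5 (ENSG00000161638, chr12:54395261-54419460) was listed at 0 counts in all 24 libraries and could not be tested. SDHA, a subunit of succinate dehydrogenase that respiring cells use, and SOX9 were listed at 0 throughout as well, so nothing is read from these zeros, and in all 3132 of 19856 protein-coding genes were at 0 in every library. ITGAV (ENSG00000138448, chr2:186590065-186680901), the alpha subunit of the vitronectin receptors, was measured but varied widely among replicates. It had 20.5, 15.9, 58.8 and 63.8 CPM in WT Control, 63.0, 65.9, 16.5 and 60.1 in WNK2 transfection, and 19.6, 30.5, 55.6 and 30.3 in WNK2 transfection +Sorbitol. WT Sorbitol lay between 41.7 and 64.7, WNK2 knockout Control between 29.6 and 61.2 and WNK2 knockout Sorbitol between 42.2 and 51.7. All groups overlapped, and none of the 9 comparisons passed for ITGAV (smallest adjusted p = 0.142, for the transfection interaction). Without WNK2 transfection replicate 3, the fall with sorbitol after transfection passed (-0.89, adjusted p = 0.0424), as did the interaction (-1.33, adjusted p = 0.0338).

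The beta subunits differed less between groups than most alpha subunits. ITGB1 (ENSG00000150093, chr10:32900319-33005792), the common partner, had group means from 595 ± 31.5 CPM in WNK2 knockout Sorbitol to 708 ± 82.5 in WT Control (SD, n = 4), and none of its 9 comparisons passed (log2 differences from -0.17 to 0.09). It was called lower in WNK2 knockout Control than in WT Control under both length settings described below (-0.24, adjusted p = 0.0225, and -0.17, adjusted p = 0.0178), and in WNK2 knockout Sorbitol than in WT Sorbitol with the length covariate (-0.14, adjusted p = 0.0438) or with only those groups fitted (-0.15, adjusted p = 0.0230). The sorbitol differences were -0.11 (SE 0.10), -0.02 (SE 0.10) and -0.08 (SE 0.10) in WT, transfected and knockout cells, while summed levels of its collagen-binding partners differed as given above. ITGB5 (ENSG00000082781, chr3:124761948-124901418), which pairs with ITGAV, fell a little in 2 backgrounds. It had 261, 262, 328 and 299.9 CPM in WNK2 transfection and 259, 209, 239 and 259 in WNK2 transfection +Sorbitol (-0.25, SE 0.08, adjusted p = 0.0148), and 292, 286, 269 and 279 in WNK2 knockout Control against 224, 236, 216 and 218 in WNK2 knockout Sorbitol (-0.33, SE 0.08, adjusted p = 0.00708). The groups did not overlap in either, but the first call was lost without WNK2 transfection +Sorbitol replicate 2 (-0.19, adjusted p = 0.0654) or WNK2 transfection replicate 3 (-0.19, adjusted p = 0.0727), and with those 2 groups fitted alone (adjusted p = 0.0991). In WT libraries the difference was 0.02 (SE 0.08, adjusted p = 0.886), but the differences between the responses did not pass for genotype (-0.35, SE 0.12, adjusted p = 0.0627) or transfection (-0.27, SE 0.12, adjusted p = 0.0731). The first passed without WT Control replicate 1 (adjusted p = 0.0251), and the second without WT Control replicate 1, WNK2 transfection replicate 1 or 2, or WNK2 transfection +Sorbitol replicate 1 or 4 (adjusted p = 0.0263 to 0.0480).

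**Figure D4:**
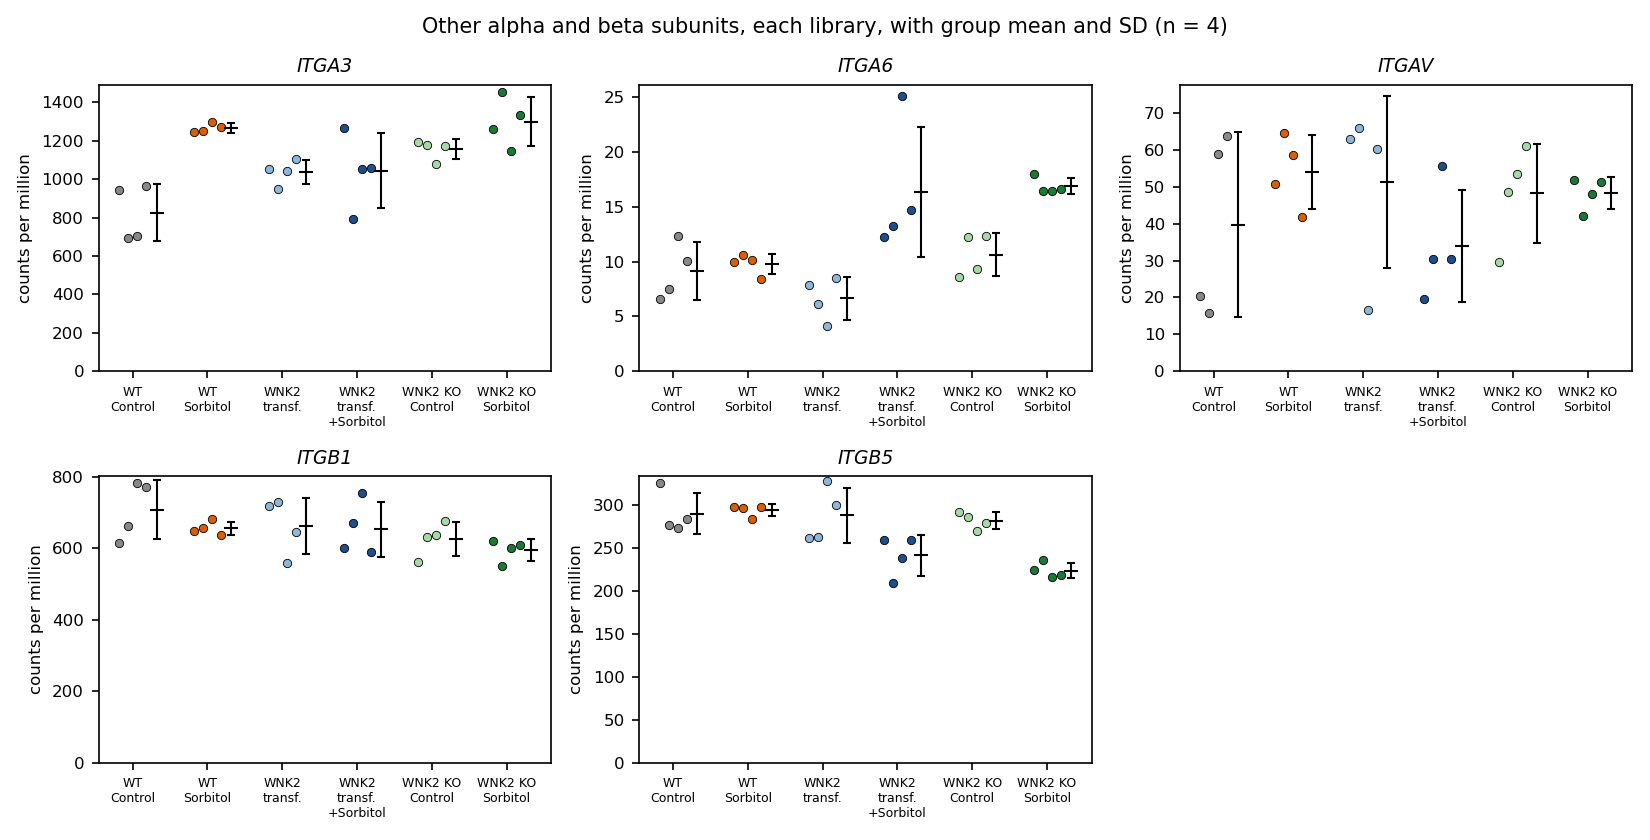
CPM of ITGA3, ITGA6, ITGAV, ITGB1 and ITGB5 in each of the 24 libraries (points, by replicate) with the group mean and SD (bar, n = 4). ITGB1 stays between 549 and 782 CPM in all libraries, ITGB5 is lowest in the sorbitol groups of transfected and knockout cells, and ITGAV spans 15.9 to 65.9 CPM with wide spread inside WT Control and WNK2 transfection.

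Between backgrounds under isotonic medium, 2 of the 8 tested members passed with transfection and 1 with knockout. The latter stood beside 42.1% of all genes called. In WNK2 transfection against WT Control, 12.5% of all genes were called (5.57% higher and 6.98% lower) and 12.3% did not overlap. ITGA2 was higher (0.55, SE 0.18, adjusted p = 0.0398) and ITGA10 lower (-0.74, SE 0.24, adjusted p = 0.0420), both with overlapping libraries. Neither passed when the 2 groups were fitted alone, and the count of 2 fell to 0 without WNK2 transfection replicate 2 or 4 or WT Control replicate 2, and to 1 without WNK2 transfection replicate 1 or 3. ITGA2 also failed without WT Control replicate 1 (adjusted p = 0.0994) or 4 (adjusted p = 0.0640), where ITGA3 passed in its place (0.40 and 0.41). With the isotonic labels exchanged, WNK2 knockout Control stood against the libraries labelled WNK2 transfection, and 3 members passed: ITGA2 (-0.79, SE 0.18, adjusted p = 0.000666), ITGA6 (0.68, SE 0.23, adjusted p = 0.0156) and ITGA10 (0.68, SE 0.23, adjusted p = 0.0197). Under sorbitol 4 of the 8 passed with transfection and 3 with knockout, and the shares of all genes called were higher there as well. In WNK2 transfection +Sorbitol against WT Sorbitol (31.7% called, 16.1% higher and 15.5% lower, with 30.3% not overlapping), ITGA10 was higher by 0.96 (SE 0.19, adjusted p = 0.000459), ITGA2 by 0.48 (SE 0.17, adjusted p = 0.0371) and ITGA6 as given, while ITGB5 was lower (-0.28, SE 0.08, adjusted p = 0.0113). That count of 4 was 2 without WNK2 transfection +Sorbitol replicate 3, where ITGA2 (adjusted p = 0.134) and ITGA6 (adjusted p = 0.109) did not pass. The ITGA2 call was also lost without WNK2 transfection +Sorbitol replicate 2 or 4 or WT Sorbitol replicate 1, 2 or 4 (adjusted p = 0.0812 to 0.0953), and ITGA3 passed without WNK2 transfection +Sorbitol replicate 1 (-0.39, adjusted p = 0.00992). In WNK2 knockout Sorbitol against WT Sorbitol (46.3% called, 23.7% higher and 22.7% lower, with 53.9% not overlapping), ITGA6 was higher and ITGA1 and ITGB5 were lower, the last with a log2 difference of -0.39 (SE 0.08, adjusted p = 0.000382). These comparisons share their WT Sorbitol libraries.

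The genotype by sorbitol interaction asks whether the knockout changed the sorbitol response. By edgeR it called 0 of the 8 tested members, against 8.65% of all genes (3.99% higher and 4.66% lower). DESeq2 called 1 (ITGB5, adjusted p = 0.0314), against 14.5% of all genes. By edgeR the smallest adjusted p were 0.0627 (ITGB5), 0.0933 (ITGA3) and 0.142 (ITGA1), and none passed. The count was 2 without WT Control replicate 1 (ITGA3 and ITGB5), with 11.2% of all genes called. It was 1 without WT Control replicate 4 (ITGA3), with 11.7% called. The transfection by sorbitol interaction called ITGA6, ITGA10 and ITGA3, the first pair higher and the last lower, against 35.5% of all genes (18.1% higher and 17.4% lower).

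Part of the spread between replicates moved with transcript length. For each library the deviation of each gene's log2 CPM from its group mean was regressed on log2 exon length over 11968 genes, and the slopes ran from -0.13 in WNK2 transfection replicate 3 to 0.08 in WNK2 transfection replicate 1. Over the 24 libraries, as a description, the deviations of ITGA2 had a correlation of 0.91 with this slope, ITGA1 and ITGAV 0.85, ITGB1 0.84 and ITGA6 0.72, while ITGB5 had -0.78, ITGA3 -0.46, ITGA11 0.13 and ITGA10 -0.01. Libraries low in ITGAV were thus mostly low in ITGA1, ITGA2, ITGA6 and ITGB1 as well, as WNK2 transfection replicate 3 shows. Group means of the slope against all libraries lay between -0.04 (WT Control) and 0.04 (WNK2 transfection +Sorbitol), each with SDs of 0.02 to 0.09. Without the 3 libraries of lowest slope (WT Control replicate 1, WNK2 transfection replicate 3 and WNK2 transfection +Sorbitol replicate 1), the counts under sorbitol stayed at 4, 5 and 5. Of all genes, 32.5%, 50.8% and 21.2% were called in those comparisons. The genotype interaction then called 3 members in place of 0, while calls over all genes rose from 8.65% to 18.6%: ITGA2 at 0.52 (adjusted p = 0.0168), ITGA3 at -0.52 (adjusted p = 0.0183) and ITGB5 at -0.42 (adjusted p = 0.00688). With the slope as a covariate, where it called 19.4% of all genes, it called these and ITGA1 (-0.65, adjusted p = 0.00565). The transfection interaction of ITGAV then passed at -1.10 (adjusted p = 0.00443), with 45.9% of all genes called in place of 35.5%. Both settings were chosen after seeing the data.

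**Figure D5:**
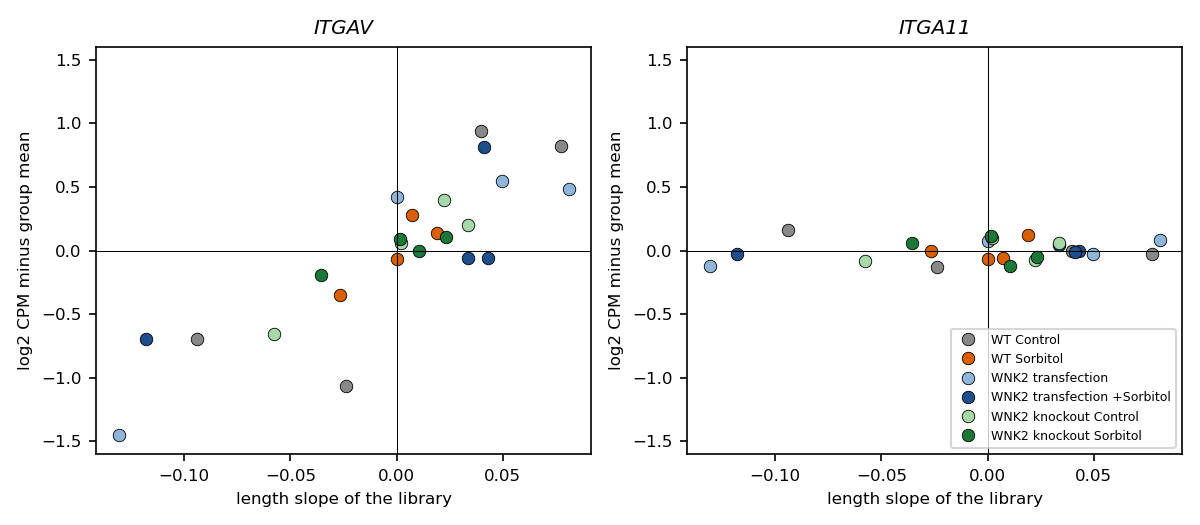
Deviation of log2 CPM from the group mean (vertical axis) against the length slope of the library (horizontal axis; the change of that deviation over all genes per doubling of exon length) for ITGAV and ITGA11, 24 libraries coloured by group. ITGAV falls and rises with the slope (correlation 0.85), whereas ITGA11 stays near 0 (0.13).

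The level most like that of ITGA11 across the 24 libraries, by Pearson correlation of log2 CPM among 12160 genes, was that of KLF9 (r = 0.97, rho = 0.92), then ANK3 (0.96, 0.96), POSTN (0.96, 0.94), EBF4 (0.96, 0.91) and PLEKHG2 (0.96, 0.92). The libraries fall into 6 groups, so these values mostly describe group means. No other member came near: ITGB5 had 0.67, ITGA1 0.12, ITGA2 -0.13, ITGA10 -0.36 and ITGA6 -0.68. The 35 tested genes within 2 Mb of ITGA11 had a median log2 difference of 0.16 between WNK2 knockout Control and WT Control and 0.30 between the sorbitol groups, opposite in sign to that of ITGA11.

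The ligands and the other collagen receptors were counted from lists, to be read against the 24.1%, 48% and 14.9% of all genes called with sorbitol in WT, transfected and knockout cells. Of 13 fibrillar and network collagens tested (17 listed), 5 rose and 0 fell with sorbitol in WT libraries (median log2 fold change 0.38), 0 rose and 11 fell in transfected cells (-1.76), and 0 rose and 8 fell in knockout cells (-0.82). The count in WT libraries turned with the isotonic labels exchanged, to 0 higher and 5 lower (median -0.48, with 15.1% of all genes called), while that after transfection was 1 higher and 9 lower (-0.93, with 39.2% called). COL3A1, a fibrillar collagen of soft tissue, was at 447 ± 12.9 CPM in WT Control, 688 ± 29.2 in WT Sorbitol, 1051 ± 25.99 in WNK2 transfection, 231 ± 37.1 in WNK2 transfection +Sorbitol, 103 ± 5.61 in WNK2 knockout Control and 58.0 ± 2.42 in WNK2 knockout Sorbitol (SD, n = 4). Its sorbitol difference was 0.62 (SE 0.08, adjusted p = 8.78e-06) in WT libraries and -2.19 (SE 0.09, adjusted p = 3.96e-16) in transfected cells. With the labels exchanged these were -0.61 (SE 0.08, adjusted p = 1.09e-05) and -0.95 (SE 0.08, adjusted p = 3.24e-09), so the direction in WT libraries rests on which isotonic group is the control. Of 3 collagen-binding receptors outside the integrins tested (5 listed), DDR1 and DDR2, the discoidin domain receptor kinases, and MRC2, a collagen uptake receptor, all rose in WT libraries (0.71, 0.68 and 0.65), all fell in transfected cells (-1.004, -0.38 and -1.42), and 0 were called in knockout cells. With the labels exchanged 0 of the 3 were called in WT libraries (0.19 for DDR1, 0.18 for DDR2 and -0.17 for MRC2), and MRC2 alone fell after transfection (-0.60, adjusted p = 0.0210). All 3 were lower in WNK2 knockout Sorbitol than in WT Sorbitol (-1.83, -1.13 and -1.43, adjusted p of 1.28e-07, 8.69e-07 and 2.46e-06). In that comparison 46.3% of all genes were called (23.7% higher and 22.7% lower).

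Laminins are the ligands of ITGA3 and ITGA6. Of 11 tested, 4 rose and 0 fell with sorbitol in WT libraries, 5 rose and 1 fell in transfected cells, and 4 rose and 2 fell in knockout cells. The 6 called after transfection are close to the share of all genes called there. Exchanging the isotonic labels gave 2 that rose and 2 that fell in WT libraries, and 6 that rose and 1 that fell after transfection. Of all genes, 15.1% and 39.2% were then called. Of 9 RGD and other glycoprotein ligands tested (13 listed), 3 rose with sorbitol in WT libraries, 2 rose and 6 fell in transfected cells, and 4 fell in knockout cells. With the labels exchanged, 1 rose and 2 fell in WT libraries, and 1 rose and 4 fell after transfection, beside 15.1% and 39.2% of all genes. FN1, which encodes fibronectin, rose in WT libraries (0.43, SE 0.11, adjusted p = 0.00687) and fell in knockout cells (-0.47, SE 0.11, adjusted p = 0.00485). Its interaction with genotype was -0.90 (SE 0.16, adjusted p = 0.000646). With the labels exchanged neither the rise in WT libraries (0.058, SE 0.11, adjusted p = 0.795) nor the interaction (-0.53, SE 0.16, adjusted p = 0.0717) passed.

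Inside the cell, of 26 integrin activators and adaptors tested (28 listed), 4 rose and 1 fell with sorbitol in WT libraries, 7 rose and 6 fell in transfected cells, and 3 rose and 3 fell in knockout cells, beside 24.1%, 48% and 14.9% of all genes called. Between genotypes, 17 were higher and 2 lower in WNK2 knockout Control than in WT Control, where 20.7% of all genes were called higher and 21.5% lower, with a list median of 0.49 beside 0.0020 over all genes. The exchange of the isotonic labels gave 17 higher and 3 lower (median 0.61), with 47.7% of all genes called. FERMT1, a kindlin that switches integrins on, was higher there by 1.70 (SE 0.17, adjusted p = 9.84e-09), and it rose with sorbitol after transfection by 3.07 (SE 0.19, adjusted p = 9.25e-13). TNS3, a tensin that links beta tails to actin, was lower (-0.41, SE 0.10, adjusted p = 0.00136). With the labels exchanged these values were 3.29, 1.48 and -1.13, and all 3 passed. Of 16 signalling kinases and scaffolds tested (18 listed), 2 rose and 3 fell, 3 rose and 4 fell, and 1 rose and 1 fell with sorbitol in the 3 backgrounds, and PTK2B, the focal adhesion kinase relative, rose in each (1.14, 1.04 and 0.77, adjusted p of 0.000241, 0.000135 and 0.00536). It also rose in the first pair with the labels exchanged (0.96 and 1.22).

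Of 16 further integrin subunits listed, 9 were tested. Their counts, and those of the TGF-beta list below, stand beside 24.1%, 48% and 14.9% of all genes called with sorbitol in WT, transfected and knockout cells. Sorbitol raised 3 and lowered 1 of them in WT libraries, raised 4 and lowered 3 in transfected cells, and raised 1 and lowered 1 in knockout cells. With the isotonic labels exchanged it raised 1 and lowered 0 in WT libraries (15.1% of all genes called). It then raised 3 and lowered 4 after transfection (39.2% called). ITGB8, which pairs with ITGAV and releases latent TGF-beta, was at 54.2 ± 10.9 CPM in WT Control and 52.9 ± 1.68 in WT Sorbitol, 68.7 ± 16.7 in WNK2 transfection and 139 ± 31.5 in WNK2 transfection +Sorbitol, and 24.2 ± 2.81 in WNK2 knockout Control and 61.6 ± 7.29 in WNK2 knockout Sorbitol (SD, n = 4). It rose with sorbitol by 1.01 (SE 0.17, adjusted p = 2.43e-05) after transfection and 1.35 (SE 0.17, adjusted p = 3.58e-06) in the knockout, and its response differed from that in WT libraries by 1.05 (SE 0.24, adjusted p = 0.00130) and 1.381 (SE 0.24, adjusted p = 0.000560). Of 9 TGF-beta responsive genes tested, 2 rose and 1 fell with sorbitol in WT libraries, 1 rose and 6 fell in transfected cells, and 1 rose and 4 fell in knockout cells. With the labels exchanged, 1 rose and 3 fell in WT libraries, and 1 rose and 5 fell after transfection, beside the same 15.1% and 39.2%. The lists were drawn up with earlier results of these data known.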

How the data were processed

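Libraries were poly(A)-selected, and the authors deposited whole-number counts of reads for each Ensembl gene on GRCh38, not normalized. The submitters' processing notes name FastQC 0.11.9, HISAT2 2.2.1, HTSeq 2.0.2 and DESeq2 1.38.3. The methods call the libraries biological replicates. Whether counting used strand is not given in the sources used here, so overlapping and antisense genes cannot be told apart.

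Positions and exon lengths come from GENCODE 29, and symbols from a separate list of gene names by Ensembl identifier. The 24 libraries were fitted with edgeR 4.0.16 (R 4.3.3) as 6 group means after filterByExpr (minimum count 10, minimum total 15) with TMM factors. glmQLFTest p-values were adjusted over 16600 genes, and the SE is the log2 fold change divided by the square root of F. Tested on simulated data with 200 genes changed 2-fold, the fit recovered 65% for WT Sorbitol against WT Control. That share is for this pairwise comparison only, since the SEs of the interactions were larger. Alternatives used DESeq2 1.42.0, other scaling, filters, groups and a replicate block. Same-numbered libraries deviated together above a correlation of 0.1 in 10 of 60 pairs, so the numbers were not treated as pairs. Replicate pairs differed by more than counting error (chi-square per degree of freedom 2.30 to 68.4). The members and lists were chosen with earlier results of these data known. All members are named with their values, and from each list only genes among the largest called changes in a direction, apart from COL3A1, MRC2, DDR1, DDR2 and ITGB8, whose levels are printed. Single values of some listed genes are not reported here.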

Additional observations from a re-analysis of the deposited data

Results flagged for a closer look

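In 6 of 54 groups of 4 libraries, 1 library lay apart by Dixon's ratio of its gap to the range of the group, and chance flags about 1 in 20 groups. ITGA2 was flagged in WT Sorbitol (replicate 3 highest at 280 CPM, ratio 0.863) and in WNK2 knockout Sorbitol (replicate 2 lowest at 251, ratio 0.922). ITGA3 was flagged in WNK2 knockout Control (replicate 3 lowest at 1077, ratio 0.839) and ITGA6 in WNK2 knockout Sorbitol (replicate 1 highest at 17.998, ratio 0.841). ITGAV was flagged in WNK2 transfection (replicate 3 lowest at 16.5 beside a next value of 60.1, ratio 0.883), and ITGB5 in WT Sorbitol (replicate 3 lowest at 283, ratio 0.894). WNK2 transfection replicate 3 also had the lowest length slope of all libraries.

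By the interaction test, the response to sorbitol differed with transfection for ITGA10 (log2 difference 1.70), ITGA6 (1.20) and ITGA3 (-0.61). That test called 35.5% of all genes, and 3 of 8 members is close to that share. With the isotonic labels exchanged none of these 3 passed (0.21, 0.28 and 0.05, adjusted p = 0.772, 0.704 and 0.909), and 5.46% of all genes were called. ITGA11 was higher in every WT Sorbitol library than in WT Control. In transfected and in knockout cells it was lower in every sorbitol library than in the matching isotonic group. The differences between responses were -2.06 for genotype and -3.23 for transfection as labelled. With the isotonic labels exchanged they were -0.77 (SE 0.11) and -0.64 (SE 0.11), and sorbitol in WT libraries stood at -0.02 (SE 0.08). The differences were not tested for ITGA11, since they chose the gene.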

How the results depend on the processing

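With the isotonic labels WT Control and WNK2 transfection exchanged, ITGA11 stood at -0.021 for sorbitol in WT libraries, ITGA10 at 0.68 (adjusted p = 0.0197) for knockout against WT Control, and ITGA2 at 1.03 (adjusted p = 0.0130) and ITGA3 at 0.050 for the transfection interaction. Counts of called members became 3 for WNK2 knockout Control against WT Control (all-gene calls from 42.1% to 47.7%), 1 for the genotype interaction (8.65% to 3.39%) and 1 for the transfection interaction (35.5% to 5.46%). Those for sorbitol became 3 in WT libraries (24.1% to 15.1%) and 6 after transfection (48% to 39.2%). ITGA3 under sorbitol after transfection lay near 0 and changed sign, to -0.00386 with only the compared groups, -0.00132 with a replicate block, -0.090 without the 3 libraries of lowest length slope, and -0.00494 with the slope as covariate. These 2 length settings were chosen after seeing the data. Each gave 3 called members for WNK2 knockout Control against WT Control, with 47.2% and 51.1% of all genes called. The genotype interaction gave 3 and 4 (18.6% and 19.4%), and the transfection interaction 5 with the covariate (45.9%). With only the compared groups the genotype interaction gave 1 (11.8%) and WNK2 transfection against WT Control 0 (4.36%). No filter on low counts gave 1 for the latter (5.62%), and DESeq2 gave 1 for the former (14.5%). The cause was not tested for any of these.

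Leaving out 1 library gave 3 to 5 called members for sorbitol in the knockout (11.2% to 13.1% of all genes). For WNK2 transfection against WT Control it gave 0 to 2 (9.19% to 16%). For WNK2 transfection +Sorbitol against WT Sorbitol it gave 2 to 5 (24.2% to 40.3%), and for the genotype interaction 0 to 2 (5.22% to 11.7%). It gave -0.10 to 0.12 for ITGA3 under sorbitol after transfection, -0.19 to 0.23 for ITGA10 in the isotonic knockout comparison, and -0.26 to 0.074 for the ITGA2 transfection interaction. The replicate block gave 3 for WNK2 transfection against WT Control (12.1% of all genes). It gave 5 for WNK2 transfection +Sorbitol against WT Sorbitol (31.1%), and left the other 7 counts as they were. Over single genes, 837 values kept direction and side of the threshold, 44 passed newly, 37 no longer passed, 16 changed sign and 4 of ITGA11 moved. Depth limits ITGA10, with 19 to 304 counts.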
